A study of Oryza sativa Japonica Group with 4 samples.

Results

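The transcripts described here are those of 8 rice genes that code for NAC transcription factors of stress and senescence, chosen by their locus identifiers: SNAC1, OsNAC3, OsNAC4, OsNAC5, OsNAC6, OsNAC10, ONAC045 and OsNAP. The choice was made with earlier results of these data known. They are 8 of the 28491 genes listed in at least 1 library, and all 8 were listed in all 4 libraries. The libraries were made from total RNA of the shoots (all parts above the soil) of japonica rice, Oryza sativa, at the 4-leaf stage, grown in soil under natural conditions with 14 h of light and 10 h of dark and no stress treatment. The wild type is DongJin, a japonica cultivar, here called DJ, with 2 libraries. The other group, also with 2 libraries, carries the label modd mutant and the title modd2 and comes from the POSTECH rice mutant library. The kind and site of the mutation, the number of plants per library and whether replicates were separate plants are not stated in the labels, so a p-value here reflects the spread between libraries alone, which may be technical.

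NAC proteins bind DNA through a conserved N-terminal NAC domain and act on transcription through a variable C-terminal region. In rice, the stress-responsive group is known for transcripts that accumulate under drought, salt, cold, wounding or abscisic acid (ABA), and for plants that withstand drought or salt better when some members are overexpressed. OsNAP is known as a promoter of leaf senescence and is itself induced by ABA. MODD is named in the series title as a negative regulator of the ABA pathway through OsbZIP46, and the comparison asks how transcripts differ between the genotypes without stress.

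The libraries held 5334814 to 5393972 expected reads. The transcript of MODD (LOC_Os03g11550) was at 36.9 and 46.6 FPKM (a read count scaled to transcript length and library size) in the libraries labelled modd2 and at 20.95 and 21.3 FPKM in DJ, which goes against the label if the mutation lowers the transcript (log2 fold change 0.93 ± 0.146 SE, edgeR adjusted p = 0.0272). Every direction below is therefore for the libraries as labelled. Leaf genes were abundant, the 3 listed summing to 4908 and 5717 FPKM in modd2 and 5827 and 6419 FPKM in DJ. The lowest p among them was that of RBCS, for the small subunit of Rubisco (-0.42 in log2 fold change, edgeR adjusted p = 0.186). Its log2 fold change was -0.22 without DJ replicate 2 and -0.60 without DJ replicate 1. Of 5 root markers, OsYSL15, LSI2 and OsNRT2.1 were at 0 in all 4 libraries. LSI1 was present, at 13.4 and 12.1 FPKM in modd2 and 11.6 and 9.56 FPKM in DJ. The sum of the 5, most of it LSI1, was 19.05 and 16.9 FPKM in modd2 against 15.4 and 11.7 FPKM in DJ. OsHKT2;1, a root sodium transporter gene, had the smaller p of the 2 tested (log2 fold change 0.78, edgeR adjusted p = 0.2). It was at 0.47 without DJ replicate 2 and 1.20 without DJ replicate 1. The meristem marker OSH1 did not exceed 0.66 FPKM. OsMADS14, a panicle marker, was at 12.79 and 10.96 FPKM in modd2 and 11.64 and 11.63 FPKM in DJ. It differed by -0.01 in log2 (edgeR adjusted p = 0.975), a sign that changed with limma on FPKM values and without single libraries. On the leading principal component over the tested genes, which held 60.2% of the variance, the libraries lay at -31.4 and -22.3 (modd2 replicates 1 and 2) and 9.38 and 44.3 (DJ replicates 1 and 2).

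SNAC1, OsNAC3, OsNAC4 and OsNAC6 were each more than 2-fold lower in the libraries labelled modd2. For each of them both modd2 libraries lay below both DJ libraries, as they did for 25.6% of tested genes. OsNAC5 was lower by a smaller amount, and OsNAC10, ONAC045 and OsNAP were 1.49 to 1.72-fold higher. None of the 8 passed edgeR's test at an adjusted p under 0.05, which 0.837% of the 19365 tested genes did (0.336% lower and 0.501% higher in modd2). At an unadjusted p under 0.05, 7 of the 8 passed, 5 lower and 2 higher, where 16.8% of tested genes did, 8.39% lower and 8.4% higher. Since the 8 were chosen with earlier results of these data known, this contrast only describes them. All 8 passed the filter on low counts. Their median log2 fold change was -0.82, against 0.00 over all tested genes. These libraries are of whole shoots, in which fewer cells that express a gene and less RNA per cell cannot be told apart.

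**Figure D1:**
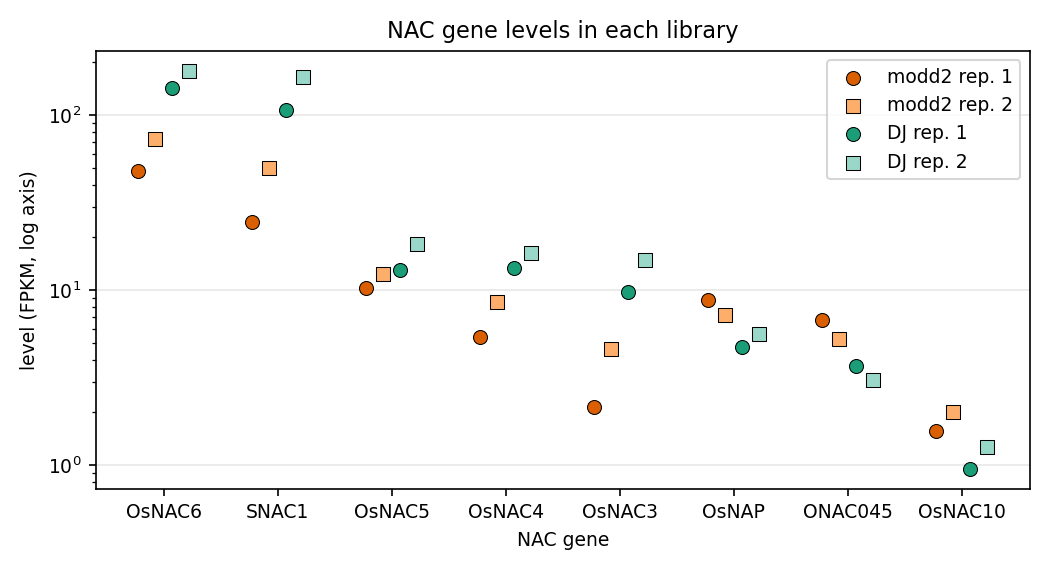
Level of each of the 8 NAC genes in FPKM on a log axis, with 1 point per library: orange points are the modd2 libraries, green points the DJ libraries, circles replicate 1 and squares replicate 2. OsNAC6 and SNAC1 are the 2 most abundant in every library; for OsNAC6, SNAC1, OsNAC4 and OsNAC3 the orange points are well below the green ones, and for OsNAP, ONAC045 and OsNAC10 they are above them.

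SNAC1 (LOC_Os03g60080), known for drought resistance when overexpressed and for expression in guard cells under drought, was at 24.6 and 49.5 FPKM in modd2 replicates 1 and 2 and at 107.1 and 164.7 FPKM in DJ replicates 1 and 2. The higher modd2 library was 2.16-fold below the lower DJ library, and replicates of a group differed by 2.01-fold in modd2 and 1.54-fold in DJ. The fitted level was 3.78-fold lower in modd2, or -1.92 ± 0.484 in log2 (SE, n = 2 per group), with a 95% interval from -3.40 to -0.44, and it did not pass (edgeR adjusted p = 0.226). It rested on 172 and 348 reads against 751 and 1165. Robust estimation gave this gene 3.24 degrees of freedom, against a median of 9.99 over tested genes. With the non-robust fit its adjusted p by edgeR was 0.0374. Over the alternatives with all 4 libraries and no covariate, adjusted p ran from that value to 0.437 (edgeR without a filter).

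OsNAC3 (LOC_Os07g12340), a gene of the stress-responsive group, was at 2.15 and 4.58 FPKM in modd2 against 9.74 and 14.9 FPKM in DJ. It was far less abundant than SNAC1, and its groups were apart by nearly the same ratio, 2.13-fold between the nearest libraries. Its log2 fold change was -1.91 ± 0.36 (SE, n = 2 per group; 95% interval -2.73 to -1.09), 3.77-fold lower, with an edgeR adjusted p of 0.053. Its reads were few, 15 and 32 against 68 and 105, and exact 95% Poisson intervals of these counts, 21.9 to 45.2 for the higher modd2 library and 52.8 to 86.2 for the lower DJ library, were apart. Such intervals cover counting error only. Among the 36 other tested genes of the lists, OsNAC3 and SNAC1 were each other's nearest in profile: their centred log2 CPM (counts scaled to library size) differed by a root mean square of 0.0406 over the 4 libraries.

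OsNAC6 (LOC_Os01g66120), also called SNAC2 and known for tolerance of drought, salt and cold on overexpression, was the most abundant of the 8 in every library. It was at 48.1 and 72.7 FPKM in modd2 against 142.1 and 179.3 FPKM in DJ, from 532 and 804 reads against 1569 and 1999. The groups were 1.96-fold apart at the nearest libraries, while replicates differed by 1.51-fold in modd2 and 1.26-fold in DJ. Its log2 fold change was -1.45 ± 0.237 (SE, n = 2 per group; 95% interval -2.04 to -0.87), 2.74-fold lower, with an edgeR adjusted p of 0.0683.

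OsNAC4 (LOC_Os01g60020), known from work on hypersensitive cell death in rice, was at 5.39 and 8.53 FPKM in modd2 and at 13.4 and 16.3 FPKM in DJ. The nearest libraries were 1.57-fold apart, about the 1.58-fold difference between the modd2 replicates. Its log2 fold change was -1.13 ± 0.245 (SE, n = 2 per group; 95% interval -1.68 to -0.59), 2.19-fold lower, with an edgeR adjusted p of 0.066. The exact Poisson intervals of 62 reads in modd2 replicate 2 (47.5 to 79.5) and of 97 reads in DJ replicate 1 (78.7 to 118.3) overlapped slightly. OsNAC4 and OsNAC6 were each other's nearest in profile among these genes, with a root mean square difference of 0.172.

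OsNAC5 (LOC_Os11g08210), induced by drought, salt and ABA and known from root-directed overexpression, was at 10.3 and 12.3 FPKM in modd2 and 13.1 and 18.3 FPKM in DJ. The groups did not overlap, but only 1.06-fold separated modd2 replicate 2 from DJ replicate 1, less than the difference between replicates in either group. Its log2 fold change was -0.52 ± 0.199 (SE, n = 2 per group; 95% interval -0.96 to -0.07; edgeR adjusted p = 0.234). DJ replicate 2 carried much of it: without that library the log2 fold change was -0.22, and without DJ replicate 1 it was -0.77. Its nearest profile in the lists was that of RBCS, at 0.123.

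OsNAC10 (LOC_Os11g03300), known for root-directed overexpression that raised yield under drought, was the least abundant of the 8 at 1.57 and 2.01 FPKM in modd2 and 0.95 and 1.26 FPKM in DJ. These levels came from 9 to 19 reads per library, and the counting intervals of the groups overlapped, so no difference was detectable at this depth (log2 fold change 0.65 ± 0.406 SE, 95% interval -0.25 to 1.56, edgeR adjusted p = 0.452). Its counts held fractions, as did those of ONAC131, a similar gene on chromosome 12, so the split of shared reads between them is uncertain. With the reads of both summed, a choice made after seeing the data, the log2 fold change was 0.30. Of the 8, only SNAC1, OsNAC3 and OsNAC4 had whole counts, to within 0.05, in all 4 libraries. Counts of OsNAC5, OsNAC6, ONAC045 and OsNAP held fractions too, and the split of shared reads was not examined for them.

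ONAC045 (LOC_Os11g03370), induced by drought, salt, cold and ABA, was at 6.74 and 5.23 FPKM in modd2 and 3.69 and 3.07 FPKM in DJ. Both modd2 libraries were above both DJ libraries, with 1.42-fold between the nearest. Its log2 fold change was 0.79 ± 0.248 (SE, n = 2 per group; 95% interval 0.23 to 1.34; edgeR adjusted p = 0.154), 1.72-fold higher, from 61 and 47 reads against 33 and 28.

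OsNAP (LOC_Os03g21060), the senescence regulator, was at 8.82 and 7.16 FPKM in modd2 and 4.75 and 5.6 FPKM in DJ. Its libraries also did not overlap, with 1.28-fold between the nearest, and the log2 fold change was 0.58 ± 0.214 (SE, n = 2 per group; 95% interval 0.10 to 1.05; edgeR adjusted p = 0.218), 1.49-fold higher. OsNAP was the nearest in profile to ONAC045, at 0.191. The nearest to OsNAP, at 0.148, and to OsNAC10, at 0.164, was OMTN6, a NAC gene targeted by the microRNA miR164.

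The spread within groups also had a pattern. SNAC1, OsNAC3, OsNAC4, OsNAC5 and OsNAC6 all had the order modd2 replicate 1, modd2 replicate 2, DJ replicate 1, DJ replicate 2 from lowest to highest, an order that 11% of tested genes had. ONAC045 had the exact reverse, as did 9.39% of tested genes. OsNAC10 and OsNAP had neither. This is also the order of the libraries on the leading principal component, and the sum of the leaf genes, most of it CAB2R, and, in reverse, that of the root markers were in it too. RBCS had this order in log2 CPM, with its modd2 libraries nearly tied (centred values -0.2039 and -0.2036), and not in FPKM. PSBS1, the other leaf gene, did not have it. The part of these differences between libraries in the NAC values was not tested.

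**Figure D2:**
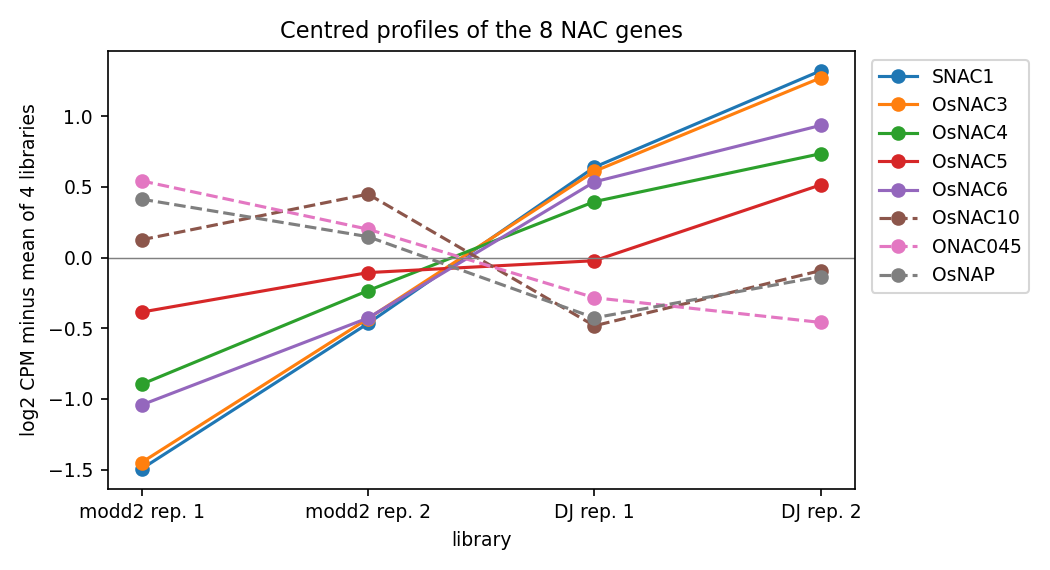
Log2 CPM of each of the 8 NAC genes in each library, minus its mean over the 4 libraries; solid lines are genes with a log2 fold change below 0, dashed lines those above 0, and lines only join the points of a gene. SNAC1 and OsNAC3 nearly coincide, reaching 1.32 and 1.27 in DJ replicate 2, and OsNAC5 has the flattest of the solid lines.

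Groups that did not overlap were common in these data: 25.6% of tested genes had both modd2 libraries below both DJ libraries and 24.7% had them above, so that the 5 lower and 3 higher genes among the 8 are to be read against those shares. A wider gap was rarer. With at least 1.5-fold between the nearest libraries, 1.64% of tested genes were lower in modd2, and SNAC1, OsNAC3, OsNAC4 and OsNAC6 were among them. The same 4 had a log2 fold change of -1 or below, as did 1.76% of tested genes, and none of the 8 had one of 1 or above, as did 1.51%. Because the 8 were chosen with earlier results of these data known, these shares are no independent test of them.

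Because OsNAC6 and SNAC1 dominate the group by level, the summed level of the 8 genes followed them. The sum was 107.7 and 162 FPKM in modd2 and 294.7 and 403.4 FPKM in DJ. OsNAC6 and SNAC1 together made up 67.5 and 75.4% of it in modd2 and 84.5 and 85.3% in DJ. The order of the lesser genes differed with the label: OsNAP was more abundant than OsNAC3 in both modd2 libraries and less abundant in both DJ libraries.

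**Figure D3:**
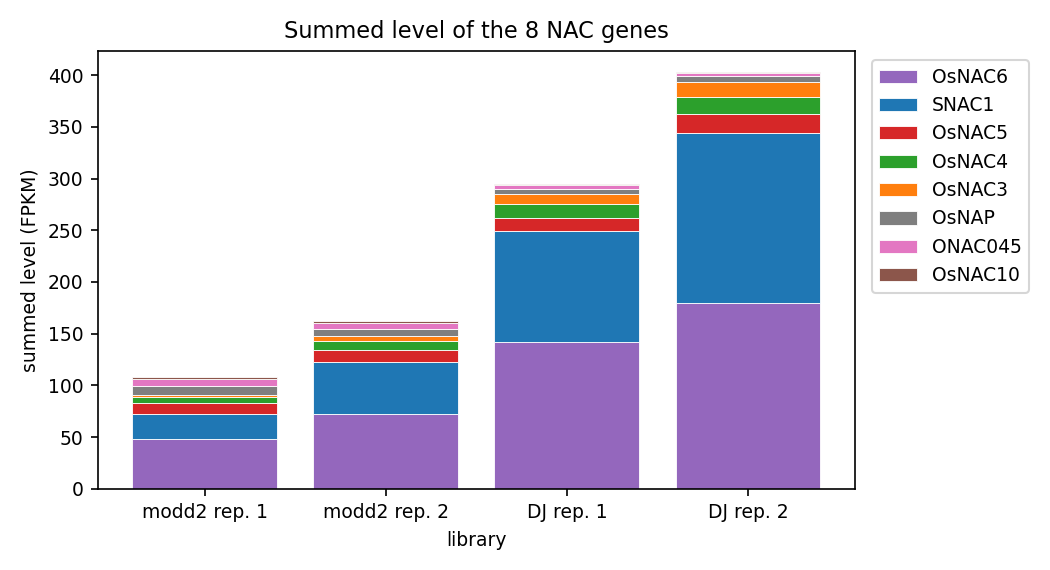
Summed level of the 8 NAC genes in FPKM, with 1 bar per library divided by gene. The bars reach 107.7 and 162 FPKM in modd2 and 294.7 and 403.4 FPKM in DJ, and OsNAC6 and SNAC1 are the 2 largest parts of each.

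Ratios within a library do not depend on scaling between libraries, but they restate the same FPKM values. OsNAC5, the denominator of all but the last, was itself lower in modd2 (log2 fold change -0.52). That makes the contrast smaller for OsNAC6 and SNAC1 and larger for OsNAP. The ratio of OsNAC6 to OsNAC5 in FPKM was 4.67 and 5.9 in modd2 against 10.9 and 9.82 in DJ. That of SNAC1 to OsNAC5 was 2.39 and 4.02 against 8.2 and 9.02. The ratio of OsNAP to OsNAC5 ran the other way, at 0.856 and 0.581 in modd2 and 0.364 and 0.307 in DJ. For SNAC1 to OsNAC6 the ratio was 0.511 and 0.682 in modd2 and 0.754 and 0.919 in DJ. With 2 libraries per group, a two-sided exact permutation test of such ratios cannot give a p below 0.333, so none is reported.

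Other NAC genes were mostly near 0 in the comparison. Of 18 listed, 13 were tested and none passed edgeR's test over all genes, which 0.837% of tested genes did. Limma on log2(FPKM + 1) values called 0 of all 19365 tested genes, so it could call none of these. DESeq2 gave an adjusted p to 5 of the 13, ONAC022 not among them, and called none of the 5. It called 2.95% of all genes to which it gave one. With shares so low, the lack of calls does not set the 13 apart from other genes. At an unadjusted p under 0.05 by edgeR, 1 was lower and 1 higher, a share near the 16.8% of all tested genes. Their median log2 fold change was 0.03. Among 6 tested genes of the other stress and senescence NAC list, 3 were below 0 and 3 above. The smallest p there was that of ONAC022, known for drought and salt tolerance on overexpression, at 3.19 and 4.33 FPKM in modd2 and 5.79 and 15.8 FPKM in DJ (log2 fold change -1.57 ± 0.572 SE, edgeR adjusted p = 0.271). DJ replicate 2 stood apart in this gene, and without it the log2 fold change was -0.63. Without DJ replicate 1 it was -2.14. All 5 tested NAC genes targeted by miR164 had values above 0, from 0.01 to 0.46, where the median over all tested genes was 0.00. The groups overlapped for OMTN2, OMTN3 and OMTN4, and did not for OMTN1 and OMTN6. OMTN6 had the smallest p of the 5, at 28.1 and 27.9 FPKM against 19.96 and 22.6 FPKM (log2 fold change 0.35 ± 0.143 SE, edgeR adjusted p = 0.257). OMTN5 was not listed in any library. The secondary wall regulators OsSWN1 and OsSWN2 were at -0.22 (edgeR adjusted p = 0.469) and -0.24 (edgeR adjusted p = 0.743) on that scale, and the seed genes ONAC020, ONAC023 and ONAC026 did not exceed 0.2 FPKM.

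**Figure D4:**
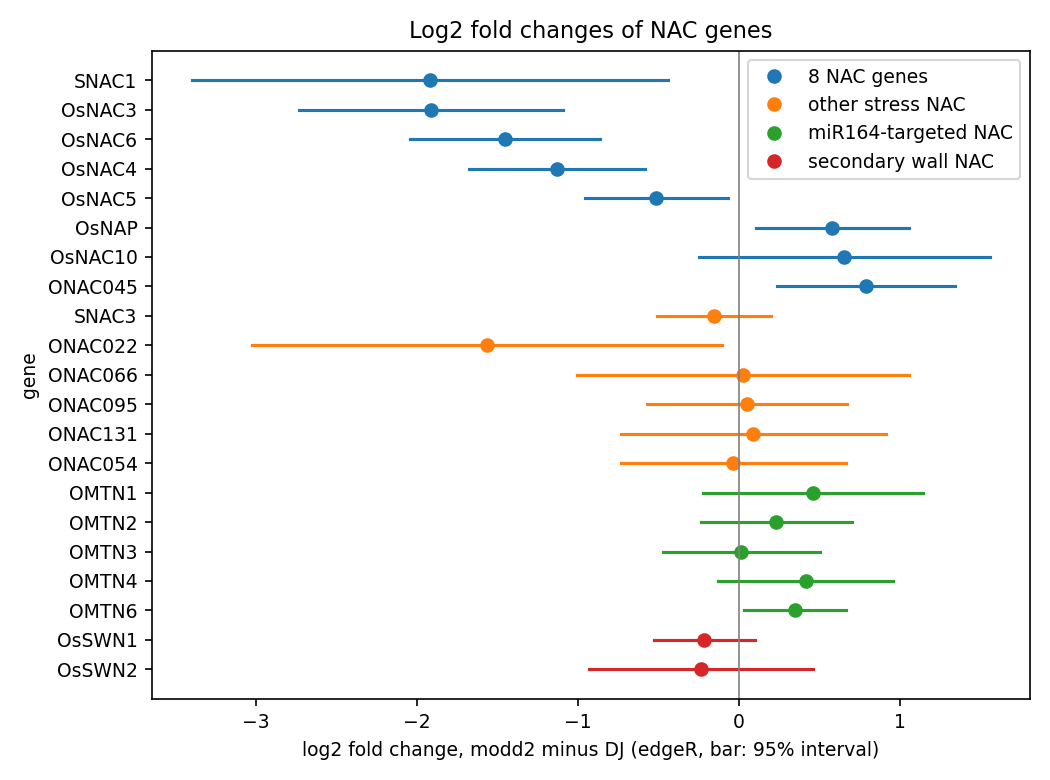
Log2 fold changes, modd2 minus DJ, from edgeR with 95% intervals as bars, for the 8 NAC genes and the 13 other NAC genes tested, coloured by list. SNAC1, OsNAC3, OsNAC6 and OsNAC4 lie at -1.92 to -1.13, while the other NAC genes, ONAC022 at -1.57 apart, lie between -0.24 and 0.46; the interval of SNAC1 is the widest of the 8.

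Genes reported downstream of these factors were not called either. Calls were rare in general: 0.837% of all tested genes by edgeR, and 2.95% of those given an adjusted p by DESeq2. Among so few genes, the lack of calls does not set them apart from other genes. Chlorophyll breakdown genes, some of which OsNAP is known to activate, had 6 tested members, of which 4 were below 0 and 2 above, a median of -0.22 in log2, and no call by edgeR. DESeq2 gave 5 of them an adjusted p, SGR not among them, and called none of the 5. At an unadjusted p under 0.05 by edgeR, 3 were lower and none higher, where 8.39% of all tested genes were lower and 8.4% higher. The 3 were SGR, NYC1 and NYC3. NYC1 was at 71.5 and 68.5 FPKM in modd2 and 86.6 and 82.6 FPKM in DJ (log2 fold change -0.29, edgeR adjusted p = 0.184). NYC3 was at 60.7 and 57.8 FPKM in modd2 and 69.7 and 69.3 FPKM in DJ (log2 fold change -0.28, edgeR adjusted p = 0.199). SGR (LOC_Os09g36200), which codes for the protein that removes magnesium from chlorophyll, had the smallest p. It was at 7.58 and 4.5 FPKM in modd2 and 10.1 and 10.4 FPKM in DJ (log2 fold change -0.81 ± 0.245 SE, edgeR adjusted p = 0.144), the opposite sign to OsNAP. The size rested on single libraries: it was -0.49 without modd2 replicate 2, -1.22 without modd2 replicate 1 and -0.86 without DJ replicate 1. Of 6 stress genes reported downstream of SNAC1, OsNAC5 or OsNAC6, 3 had enough reads to be tested, 1 was below 0 and 2 above, and none passed. OsNAS3, which codes for a nicotianamine synthase, was at 3.45 and 4.35 FPKM in modd2 against 6.31 and 5.8 FPKM in DJ (log2 fold change -0.67 ± 0.238 SE, edgeR adjusted p = 0.197). OsSRO1c, known as a target of SNAC1 in guard cells, was at 0.26 on the same scale (edgeR adjusted p = 0.611), and OsPP18, a protein phosphatase gene also known as a target of SNAC1, at 0.10 (edgeR adjusted p = 0.686). OsLEA3-1, a late embryogenesis abundant protein gene, did not exceed 2.51 FPKM, OsNAS1 did not exceed 0.13 FPKM and OsNAS2 was at 0 throughout, so these were not tested.

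Whether the 4 lowest genes were called depended on the method, while their direction was the same under every alternative run. That direction was all but set in advance, since their groups did not overlap and the alternatives reused the same libraries. DESeq2 gave an adjusted p to 4 of the 8 and called SNAC1 (adjusted p = 0.0471) and OsNAC6 (adjusted p = 0.00495). It gave OsNAC4 an adjusted p of 0.0528 and OsNAC5 one of 0.542. After its own filter, it gave none to OsNAC3, a gene of few reads, or to OsNAC10, ONAC045 or OsNAP. Of the genes to which it gave an adjusted p, it called 2.95%, and 1.6% as lower. With all 4 libraries and no covariate, 7 or 8 alternatives per gene gave an adjusted p. OsNAC3, OsNAC6 and SNAC1 were called in 2 each, OsNAC4 in 1 and the other 4 genes in none. Over all genes, non-robust edgeR called 180 of 19365, the FPKM filter 204 of 20480 and the fit without a filter 764 of 28439. With 1 library left out, a group had a single library, so calls in those fits are not counted here. The log2 fold change then ran from -1.51 to -0.83 for OsNAC4, from -1.79 to -1.18 for OsNAC6 and from -0.77 to -0.22 for OsNAC5. Ranges of adjusted p are given for the alternatives with all 4 libraries and no covariate. From edgeR without a filter to limma on log2(FPKM + 0.1), they were 0.0094 to 0.133 for OsNAC3 and 0.0044 to 0.15 for OsNAC4. OsNAC6 ranged from 0.00495 (DESeq2) to 0.147 (edgeR without a filter), and OsNAC5 from 0.152 (edgeR without a filter) to 0.542 (DESeq2). For OsNAC3 and SNAC1, leaving out a modd2 library moved the size more than leaving out a DJ library: the log2 fold change of OsNAC3 was -2.57 without modd2 replicate 2 and -1.46 without modd2 replicate 1, and that of SNAC1 was -2.53 and -1.49.

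**Figure D5:**
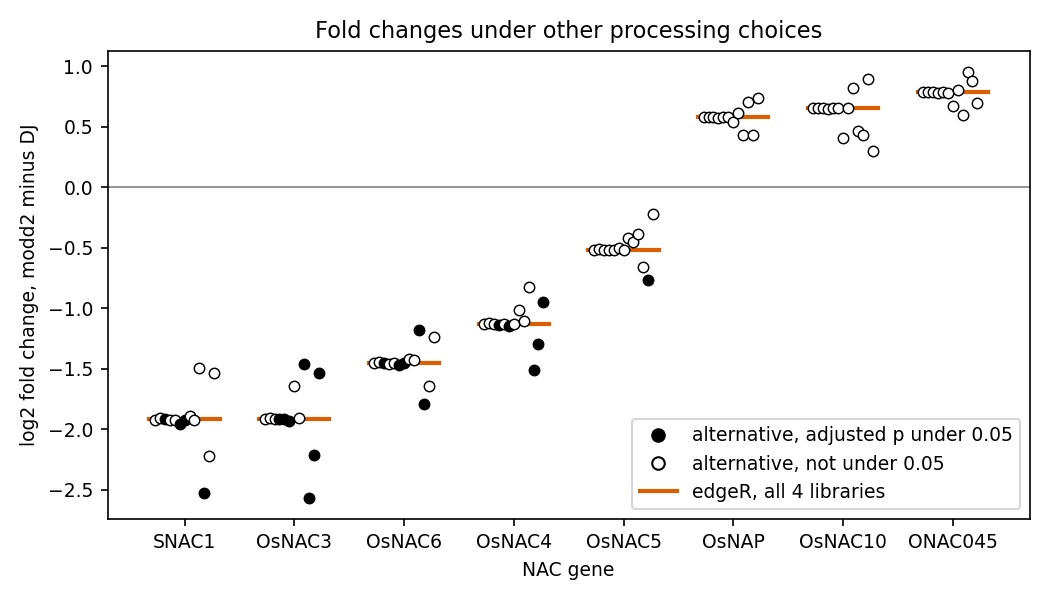
Log2 fold change, modd2 minus DJ, of each of the 8 NAC genes under each alternative (points; filled where the adjusted p was under 0.05) and with edgeR on all 4 libraries (orange line). Every point is on the same side of 0 as its line, which groups that do not overlap all but ensure. Filled points occur only for SNAC1, OsNAC3, OsNAC6, OsNAC4 and OsNAC5. Fits with 1 library left out, where a group had a single library, are among the points, and the only filled point of OsNAC5 is from such a fit.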

How the data were processed

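Expected counts deposited by the authors are estimated per gene, with a read that fits several genes divided among them; the submitters' processing notes name RSEM, Bowtie and BWA, with no versions. The FPKM values deposited by the authors scale such counts to transcript length and library. The genome build is not given in the sources used here. A gene with no row in a table was taken as 0, since no row holds a 0. Groups and replicate numbers come from the sample titles.

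Expected counts were rounded and tested with edgeR 4.0.16 (R 4.3.3): filterByExpr at its defaults (minimum count 10, total 15), TMM factors, robust quasi-likelihood fit, no covariate, Benjamini-Hochberg adjustment over all 19365 tested genes, threshold 0.05. Standard errors are the absolute log2 fold change divided by the square root of F. The code was tested on simulated data. Profiles use log2 CPM, the count scaled to library size. Alternatives used DESeq2 1.42.0, limma 3.58.1, other scalings and filters, a replicate block, and each library left out.

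The 8 genes and the gene lists were chosen with earlier results of these data known. Symbols are pairings from general knowledge; the RefSeq gene table of another assembly matched 0 identifiers but held 20 of 49 listed symbols, all on the same chromosome, among them 5 of the 8. Genes named outside the 8 are the called gene, or the gene with the smallest p, in each list, the gene nearest in profile to each of the 8, and those needed to account for a list by count. Libraries of a group differed beyond sampling noise (chi-square per degree of freedom 2.54 for modd2, 4.5 for DJ), so all 4 were kept.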

Additional observations from a re-analysis of the deposited data

How the results depend on the processing

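All 8 NAC genes kept their direction under every alternative that gave a value. This was all but set in advance. Their groups did not overlap, so leaving out 1 library could hardly reverse a sign, and the other alternatives reused the same 4 libraries. The number of them called was 0 with edgeR on all 4 libraries. It was also 0 with RLE or upper-quartile factors and with limma on log2(FPKM + 1) or log2(FPKM + 0.1). The number was 1 with the filter of a mean of 1 FPKM, and 2 with non-robust edgeR and without a filter. DESeq2, which gave an adjusted p to 4 of the 8, called 2. All of those called were lower in modd2. Over all genes, 162 were called; it was 204 with the FPKM filter, 180 with non-robust edgeR (89 higher, 91 lower), 102 with upper-quartile factors, 764 without a filter, 350 with DESeq2, 0 with limma at either pseudocount, and 144 to 2483 with 1 library left out (591 without modd2 replicate 2, 2483 without DJ replicate 1, 457 without DJ replicate 2), where the lone library of a group is assumed to vary like the other group. By limma, 3093 and 3062 genes, 6 of the NAC genes among each, had an unadjusted p under 0.05. With the replicate number as a block, 870 genes and 4 of the NAC genes (SNAC1, OsNAC3, OsNAC4 and OsNAC6) were called; the numbers are not known to pair the libraries, and same-numbered deviations correlated at r = 0.0126 over genes, so no crossed pairing was run. OsMADS14 changed sign with limma (0.0235 and 0.025 at the larger and smaller pseudocount) and ranged from -0.117 to 0.0818 with 1 library left out. MODD was not called by limma (adjusted p = 0.091 and 0.103). The cause of these differences was not tested. Depth limits OsNAC10 most, with 9 to 19 reads per library.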
